A study of Arabidopsis thaliana with 3 samples.

Results

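The phytochrome-interacting factors (PIFs) and their relatives PIL1 and HFR1 were followed in whole seedlings of Arabidopsis thaliana. The 9 genes were taken by locus identifier (PIF1, PIF3, PIF4, PIF5, PIF6, PIF7, PIF8, PIL1 and HFR1), and all 9 were found among 27416 genes with a deposited value. The data come from 1 group of 3 RNA-seq libraries, numbered replicates 4, 5 and 6, of wild-type plants of the accession Col-0, in a series whose title concerns N6-adenine methylation of DNA. The plants were 3 weeks old and grew on MS plates in long days (16 h light and 8 h dark) at a temperature of 23 ± 2 °C. No mutation, transgene or treatment is named for them. Nothing in the labels says whether the 3 libraries came from separate plants or cultures, and the time of day of harvest is not given in the sources used here. With 1 group there is no contrast of conditions: the data give the level of each gene, the differences between genes within a library and the spread between libraries. Values are used as the authors deposited them and carry no unit. They are called FPKM here (fragments per kilobase of gene model and per fixed number of assigned fragments). Being scaled to length, they allow genes of unequal length to be compared. Each mean is given with its SD over 3 libraries (n = 3).

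PIFs are transcription factors of the basic helix-loop-helix (bHLH) class that bind the G-box of target promoters. They bind the light-activated form of phytochrome, the red and far-red photoreceptor, which leads to their phosphorylation and, for most of them, their breakdown. In darkness, shade and warmth PIFs drive elongation growth, and in dark-grown seedlings they hold back greening. HFR1 and PIL1 are relatives whose RNA rises in shade and whose proteins dampen PIF action. HFR1 does so by pairing with PIFs into dimers that do not bind DNA.

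The feature that ties PIFs to phytochrome B is a short stretch near the start of the protein, the active phytochrome B-binding motif. For each gene the longest annotated coding sequence was translated. It was searched for the core of this motif (glutamate and leucine, any 4 residues, then glycine and glutamine). The core was found once in 8 of the 9 members and not in HFR1. The coding bases of the core are shown to mark which genes hold it in that coding sequence. Shorter annotated coding sequences were not searched, and binding to phytochrome was not measured. Capitals mark the codons of the 4 fixed residues, and all sequences and coordinates are from RefSeq's TAIR10.1.
PIF1 (chr2:8706307-8706330, minus strand): GAGCTTttatggcagaacGGTCAA
PIF3 (chr1:3077397-3077420, plus strand): GAGCTGgtgtgggaaaatGGTCAG
PIF4 (chr2:17887177-17887200, plus strand): GAGTTAttatggcgagatGGACAA
PIF5 (chr3:21829661-21829684, minus strand): GAGCTAttgtggagagatGGTCAA
PIF6 (chr3:22990469-22990492, minus strand): GAGCTTgtgtttgagaatGGCCAG
PIF7 (chr5:24640251-24640274, minus strand): GAGCTCacatgggaaaatGGGCAA
PIF8 (chr4:18049-18072, plus strand): GAGCTGacgtgggagaacGGGCAA
PIL1 (chr2:19297385-19297408, minus strand): GAGCTGgtgtgtgaaaatGGGCAG
The core alone is not particular to PIFs, since 115 of 26710 proteins searched held it at any place in the protein.

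The second feature is the basic region, with which a bHLH protein touches DNA. It was located in each member by its distance from the first helix of the bHLH domain. The glutamate that contacts the E-box, of which the G-box is 1 form, was encoded in 8 members, and HFR1 encoded arginine at that place. The stretch is shown for 4 members, PIF4 as a typical DNA-binding PIF and the 3 members whose basic region departed from the pattern searched (histidine, any 3 residues, glutamate, any 2, arginine and arginine, any 2, isoleucine). Capitals mark the codon at the place of the contact glutamate, and in PIF4, PIF6 and PIL1 an intron, left out here, splits the stretch in the genome.
PIF4 (chr2:17887968-17888131, plus strand): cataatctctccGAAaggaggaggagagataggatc
PIF6 (chr3:22989774-22989887, minus strand): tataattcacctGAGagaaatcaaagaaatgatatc
PIL1 (chr2:19296601-19296724, minus strand): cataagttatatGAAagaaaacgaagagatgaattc
HFR1 (chr1:467006-467041, minus strand): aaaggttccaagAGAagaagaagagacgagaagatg
Over the whole proteins PIF4 and PIF5 were the closest pair, with identity at 62.2% of the residues of the shorter protein. PIF6 and PIL1 followed with 49.6%, and PIF7 and PIF8 with 37.7%. Protein lengths ran from 292 residues in HFR1 to 524 in PIF3.

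Of the 9 genes, 8 were at 1 FPKM or more in every library, against 63% of 27197 nuclear protein-coding genes. At 10 FPKM or more there were 6, against 35.7% of those genes. Their median lay 1.55 above the median of nuclear protein-coding genes on the log2(FPKM + 1) scale (1.48 to 1.59 in single libraries). When members and background were both limited to genes averaging at least 1 FPKM, this difference was 0.51. Levels spanned a wide range. PIF4 was at the top, followed by HFR1 and PIF5 and then by PIF8, PIF1, PIF3 and PIF7. PIF6 and PIL1 lay below the median nuclear gene of 4.71 FPKM. The order was the same in each of the 3 libraries, and no neighbours in it overlapped in their ranges over libraries. These are levels of bulk tissue, in which few cells with much RNA of a gene and many cells with little cannot be told apart.

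**Figure D1:**
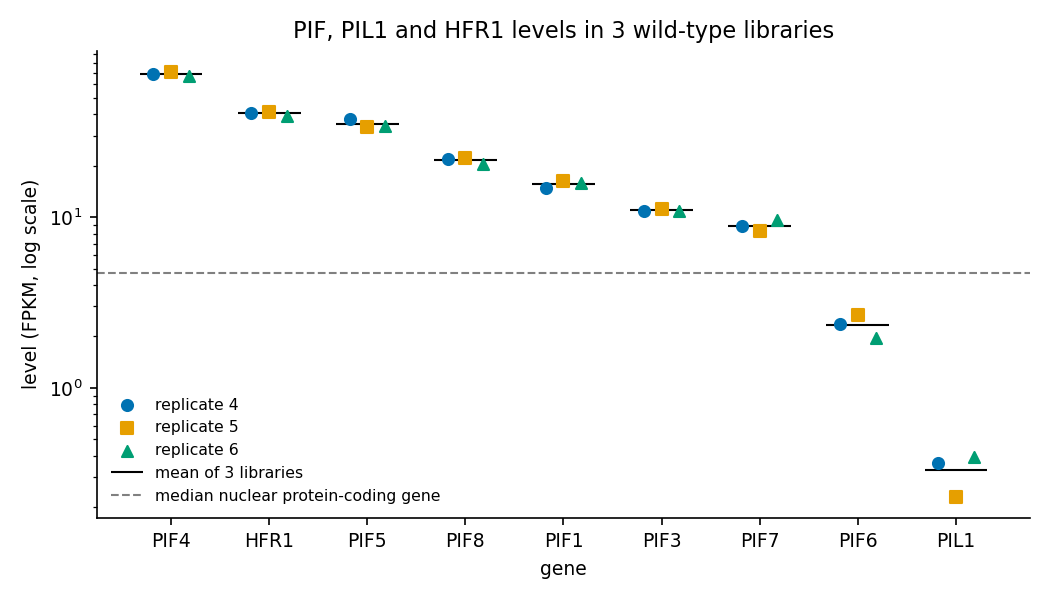
Level of each of the 9 genes in replicates 4, 5 and 6 (vertical axis, FPKM on a log scale), with the mean of the 3 libraries as a black bar and the median nuclear protein-coding gene (4.71 FPKM) as a dashed line. PIF4 is highest at 67.4 to 70.9 FPKM, and only PIF6 and PIL1 lie below the dashed line.

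The elongation pair came first. PIF4 (AT2G43010, chromosome 2, 17886101 to 17889087), the factor best known for growth in warmth, had 69.1 FPKM in replicate 4, 70.9 in replicate 5 and 67.4 in replicate 6. This was the highest level of the 9 genes, 69.1 ± 1.77 FPKM, above 93.5% of nuclear protein-coding genes. Its close paralog PIF5 (AT3G59060, chromosome 3, 21827905 to 21830837), which acts with PIF4 in shade growth and leaf senescence, had 37.8, 34.0 and 34.2 FPKM in replicates 4, 5 and 6, or 35.3 ± 2.15 FPKM. The 2 genes did not overlap, PIF4 being above PIF5 in 3 of 3 libraries by 0.95 ± 0.094 on the log2(FPKM + 1) scale, a ratio of 1.96 ± 0.13 in FPKM. Replicate 4 stood above the other libraries for PIF5 and in the middle for PIF4.

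PIF1 and PIF3, the members that bind phytochrome A as well as phytochrome B, were lower. PIF1 (also PIL5, AT2G20180, chromosome 2, 8704024 to 8707009), a repressor of seed germination and of chlorophyll synthesis in the dark, had 14.9, 16.3 and 15.8 FPKM in replicates 4, 5 and 6. PIF3 (AT1G09530, chromosome 1, 3075768 to 3079654), the founding member, had 10.9, 11.2 and 10.9 FPKM. The groups of values did not overlap: PIF1 at 15.6 ± 0.702 FPKM was above PIF3 at 11.0 ± 0.162 FPKM in 3 of 3 libraries, by 0.47 ± 0.048 on the log2 scale. Summed, PIF4 and PIF5 reached 104 ± 2.69 FPKM and PIF1 and PIF3 reached 26.7 ± 0.836 FPKM. The first sum exceeded the second by 1.93 ± 0.068 on the log2 scale, in 3 of 3 libraries.

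PIF7 and PIF8 stood apart in level. In protein their identity (37.7% of the shorter protein) was only slightly above that of the next pair, PIF1 and PIF5 (35.1%). PIF8 (listed as UNE10, AT4G00050, chromosome 4, 17639 to 20183), a repressor of phytochrome A responses, had 21.9, 22.3 and 20.4 FPKM in replicates 4, 5 and 6. PIF7 (AT5G61270, chromosome 5, 24638491 to 24640765), a light-stable factor that drives the first auxin response to shade, had 8.88, 8.25 and 9.61 FPKM. Every value of PIF8 was thus above every value of PIF7, and the log2 difference of PIF7 minus PIF8 was -1.18 ± 0.16, below 0 in 3 of 3 libraries. Set against the summed quartet PIF1, PIF3, PIF4 and PIF5 (131 ± 2.45 FPKM), PIF7 at 8.91 ± 0.682 FPKM was lower by a log2 difference of -3.74 ± 0.12. A gene on the opposite strand, AT5G61260, overlaps PIF7 by 318 bases and had 0.359 FPKM, and 14.1% of the 50-base words of the longest PIF7 transcript occur in other transcripts on either strand.

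PIF6 was the lowest of the PIFs. PIF6 (listed as PIL2, AT3G62090, chromosome 3, 22988547 to 22990709), known mainly from developing seeds and seed dormancy, had 2.36, 2.66 and 1.95 FPKM in replicates 4, 5 and 6, or 2.32 ± 0.355 FPKM. Its range stayed below that of PIF7 and above that of PIL1 in the 3 libraries. PIF6 is also the least certain member: a long non-coding gene on the opposite strand, AT3G09745, covers 2083 bases of it, and 83.7% of its 50-base words are shared with other transcripts on either strand. The opposite-strand gene AT3G62080, at 11.3 FPKM, overlaps it by 231 bases. The libraries were directional, but how the authors' counting treated strand is not given in the sources used here, and reads of the 2 genes may not have been told apart.

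The shade-induced inhibitors of PIFs lay at opposite ends. HFR1 (AT1G02340, chromosome 1, 465616 to 467880), the member without the phytochrome-binding core, had 40.9, 41.5 and 39.4 FPKM in replicates 4, 5 and 6. PIL1 (AT2G46970, chromosome 2, 19295431 to 19297858), often used as an early shade marker, had 0.362, 0.230 and 0.395 FPKM. HFR1 was second only to PIF4 among the 9 genes, and PIL1 was last and below 1 FPKM in every library. The log2 difference of PIL1 minus HFR1 was -4.97 ± 0.13, below 0 in 3 of 3 libraries, and the ratio of the means in FPKM was 123 for HFR1 over PIL1. The PIL1 value rests on 11, 7 and 12 reads, 30 in all, for which the exact 95% Poisson interval is 20.2 to 42.8 reads or 0.222 to 0.470 FPKM, covering counting error only.

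HFR1 was compared, by RNA only, with the PIFs it is best known to bind, and protein amounts were not measured. Its level of 40.6 ± 1.08 FPKM was 0.389 ± 0.0067 of the sum of PIF4 and PIF5, a log2 difference of -1.34 ± 0.024 that was below 0 in 3 of 3 libraries. Against PIF5 alone HFR1 was higher in 3 of 3 libraries, but by 0.20 ± 0.086, the smallest step in the order. The lowest HFR1 value was 39.4 FPKM and the highest PIF5 value 37.8 FPKM. The next smallest step, from PIF3 to PIF7, was 0.28 ± 0.12, with 10.9 FPKM as the lowest PIF3 value and 9.61 FPKM as the highest PIF7 value. No p-value is given for these differences, because 0.25 is the smallest that flipping signs over 3 libraries could reach in an exact two-sided test.

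**Figure D2:**
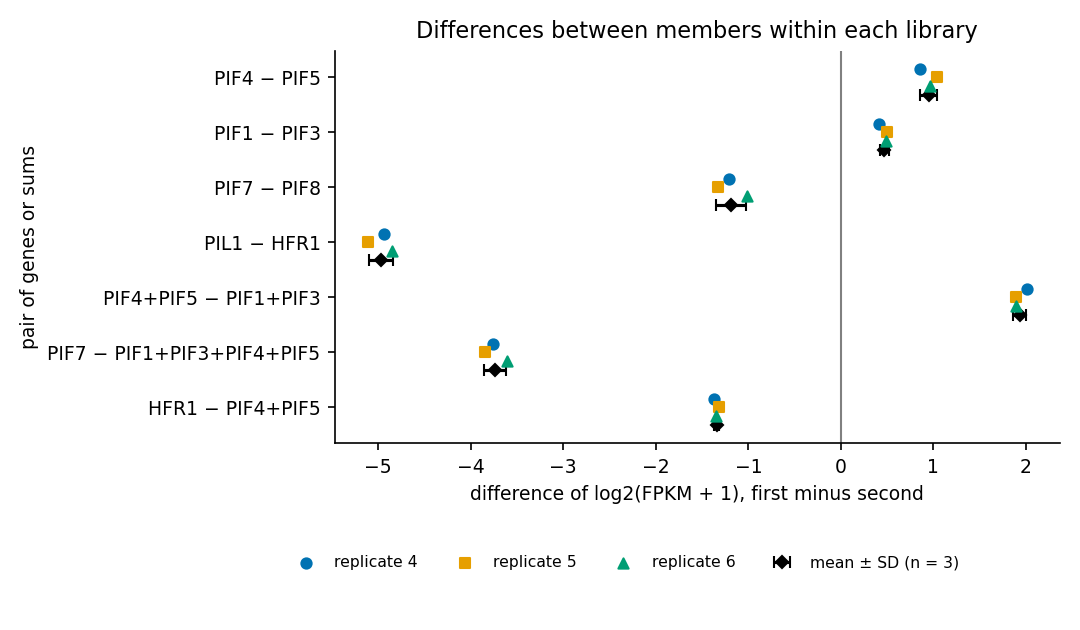
Difference of log2(FPKM + 1) between members or sums of members within replicates 4, 5 and 6 (horizontal axis, first minus second), with the mean ± SD over 3 libraries as black diamonds. For each of the 7 pairs the 3 libraries lie on the same side of 0, from -4.97 for PIL1 minus HFR1 to 1.93 for PIF4 and PIF5 minus PIF1 and PIF3.

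As shares of the summed level of the 9 genes (205 ± 4.13 FPKM), PIF4 held 33.8 ± 0.43%, HFR1 19.8 ± 0.18% and PIF5 17.2 ± 0.94%. These 3 together held 70.8 ± 0.47%. PIF8 held 10.5 ± 0.29% and PIF1 7.64 ± 0.39%, and PIF6 and PIL1 held 1.13 ± 0.15% and 0.161 ± 0.045%. In the distribution of all nuclear protein-coding genes PIF7 lay above 60.8% and PIF3 above 65.1%. PIF6 was above 42.2% of nuclear protein-coding genes and PIL1 above 29.8%.

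**Figure D3:**
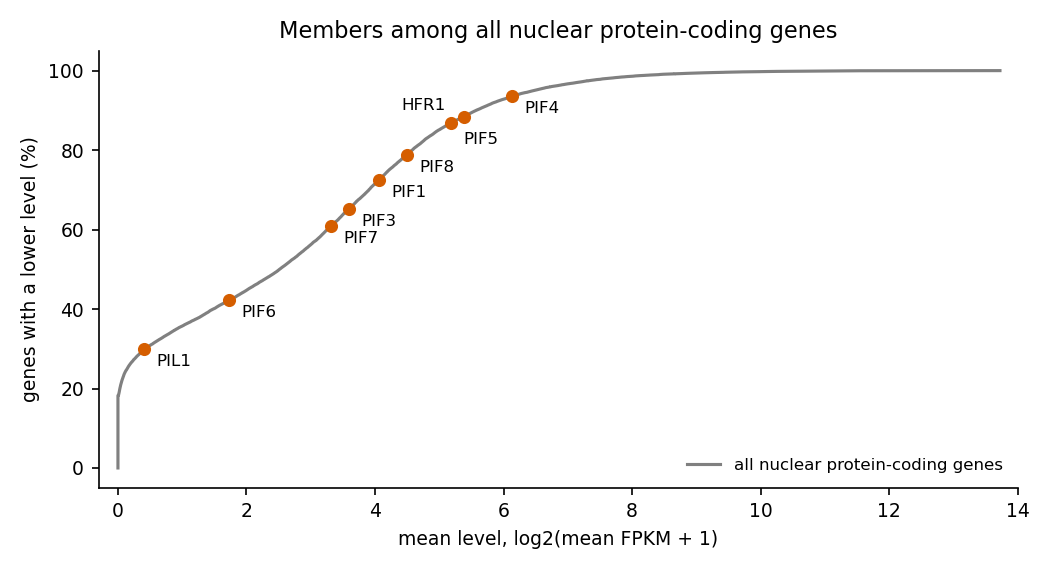
Cumulative distribution of mean levels of 27197 nuclear protein-coding genes (grey line, horizontal axis log2 of mean FPKM + 1, vertical axis the percentage of genes with a lower level), with the 9 members as orange points. PIF4 lies above 93.5% of genes, HFR1 above 88.4%, PIF5 above 86.8% and PIL1 above 29.8%.

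The spread between libraries was set beside counting error, using whole reads recovered from the deposited values. Library totals were 19892527 to 19921241 reads. Members had 30 (PIL1) to 7226 (PIF4) reads over the 3 libraries. For PIF6 the smallest whole reads that gave its values, 40, 45 and 33, imply a length of 850 bases, shorter than its shortest coding sequence of 975 bases, so the doubled reads at 1700 bases were used. The coefficient of variation of FPKM ran from 1.47% in PIF3 to 15.3% in PIF6 and 26.5% in PIL1, where counting alone gives 4.80%, 11.3% and 31.6%.

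PIF5 was the member that varied most beyond counting. Its reads were 1386, 1245 and 1252 in replicates 4, 5 and 6, a variance of 4.78 times the mean, and 95.4% of 2540 genes with a similar number of reads (within 1.5-fold) had a lower ratio. In those genes the median ratio was 1.07, where Poisson counting gives a median of 0.693 with 3 libraries. PIF5 was picked as the largest of 9 ratios, so a high place among similar genes was more likely than for a gene named beforehand. The other 8 members had ratios from 0.0936 (PIF3) to 1.84 (PIF6). The PIF6 ratio rests on the doubled reads, and with the smallest whole reads it is 0.920, with a counting error of 15.9% beside the observed 15.3%. The mean of PIF5 without replicate 4 was 34.1 FPKM. Across the 9 genes replicate 5 was highest for 6, replicate 6 for 2 and replicate 4 for PIF5.

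**Figure D4:**
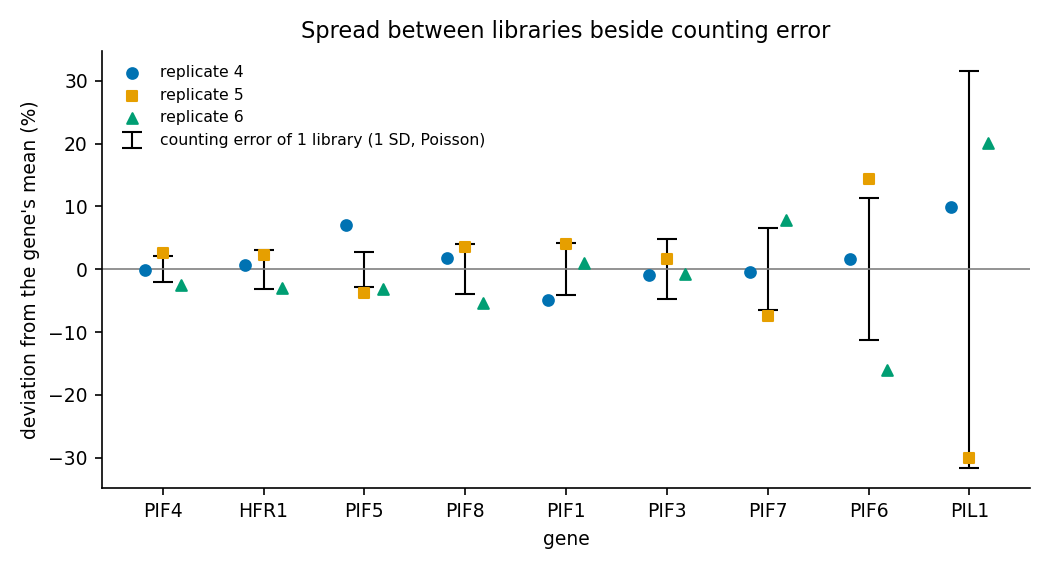
Deviation of each library from the gene's own mean (vertical axis, % of the mean FPKM) for the 9 genes, with bars for the counting error of 1 library (1 SD, Poisson, from recovered reads). PIF5 in replicate 4 stands well outside its bar, and the widest bar belongs to PIL1, with 7 to 12 reads a library.

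The other genes that carry the same features as the PIFs were each below 1 FPKM on average. Among translated proteins 9 had both the phytochrome-binding core and the full basic region pattern, namely 6 members (PIF1, PIF3, PIF4, PIF5, PIF7 and PIF8) and 3 further bHLH genes. These 3 genes, bHLH56 (AT4G28800), bHLH119 (AT4G28811) and bHLH127 (AT4G28815), had 0.175 ± 0.022, 0.0588 ± 0.052 and 0.272 ± 0.19 FPKM. The 6 members had between 8.91 and 69.1 FPKM. Among all 53 genes with the basic region pattern PIF4 ranked 3, PIF5 9, PIF8 14, PIF1 18, PIF3 24 and PIF7 26. Of the 6 listed bHLH relatives of the subfamily 3 were at 1 FPKM or more, against 63% of nuclear protein-coding genes. The fruit and carpel factors SPT (6.06 ± 0.589 FPKM) and ALC (5.66 ± 0.228 FPKM) were highest.

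Genes of upstream partners of PIFs came next. All 5 phytochromes were at 1 FPKM or more, against 63% of nuclear protein-coding genes. PHYA had 27.8 ± 1.37 FPKM, PHYB 19.9 ± 0.775 and PHYC 17.5 ± 0.661 FPKM. PHYE had 10.1 ± 0.50 and PHYD 5.28 ± 0.198 FPKM. All 5 were below PIF4. The DELLA proteins, gibberellin-regulated repressors that keep PIFs from binding DNA, were likewise all at 1 FPKM or more. RGA had 66.3 ± 0.897 FPKM and GAI 40.8 ± 1.70 FPKM, whereas RGL1 had 7.27 ± 0.356, RGL3 4.44 ± 0.224 and RGL2 2.73 ± 0.174 FPKM. Of 17 kinases and ubiquitin ligases that act on PIFs or HFR1, 17 were at 1 FPKM or more and 16 at 10 or more. The shares of nuclear protein-coding genes at these levels were 63% and 35.7%. The kinase BIN2, a brake on brassinosteroid signalling that phosphorylates PIF4, was highest at 153 ± 0.343 FPKM, followed by the F-box protein EBF1 at 71.3 ± 1.53 FPKM, and BOP1 was lowest at 1.73 ± 0.687 FPKM.

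Partners at the level of transcription ranged widely. Of 7 transcription factors that work with or against PIFs, 7 were at 1 FPKM or more, against 63% of nuclear protein-coding genes. The highest were the brassinosteroid factor BES1 (197 ± 1.45 FPKM) and the ethylene factor EIN3 (65.7 ± 0.891 FPKM). HYH, a relative of HY5, was lowest at 6.94 ± 1.15 FPKM. The small HLH proteins PAR and PRE, which pair with other factors without typical DNA binding, had a median of 2.58 FPKM, and 5 of 8 were at 1 FPKM or more, near the 63% of all nuclear protein-coding genes. PAR2 had 12.4 ± 0.976 FPKM and PAR1 7.06 ± 1.08 FPKM, and PRE4 was listed at 0 in replicates 5 and 6 and at 0.180 FPKM in replicate 4. Among 9 clock genes tied to PIF4 and PIF5 RNA or to PIF activity, 6 were at 1 FPKM or more, again near the 63% of all nuclear protein-coding genes. Of the 9, 3 were above PIF4, which itself lies above 93.5% of nuclear protein-coding genes. TOC1, which binds and restrains PIFs, had 107 ± 0.481 FPKM. ELF4, of the evening complex that represses PIF4 and PIF5, had 104 ± 3.89 FPKM, and LUX had 102 ± 1.35 FPKM. Below 1 FPKM were CCA1 (0.516 ± 0.056 FPKM), LHY (0.0874 ± 0.071 FPKM) and PRR9 (0.0369 ± 0.016 FPKM). The hour of harvest is not given, so these levels and those of the 9 members cannot be placed in the day.

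Genes downstream of PIFs differed by class in level, and whether PIFs set these levels was not tested. Of 15 shade and growth targets 12 were at 1 FPKM or more, against 63% of nuclear protein-coding genes. At 10 FPKM or more there were 3, against 35.7% of those genes. The median of the 15 was 3.13 FPKM, below the median nuclear gene. The homeodomain genes HAT1 (38.1 ± 1.06 FPKM) and HAT2 (24.7 ± 0.804 FPKM) were highest, and the auxin synthesis gene YUC5 was lowest at 0.118 ± 0.039 FPKM. Of 8 genes listed as greening targets of PIF1 and PIF3, 6 were at 1 FPKM or more, against 63% of nuclear protein-coding genes. All 6 were above PIF4, which itself lies above 93.5% of nuclear protein-coding genes, and the median of the 8 was 103 FPKM. The protochlorophyllide reductase gene PORB had 249 ± 1.13 FPKM and the magnesium chelatase gene GUN5 had 151 ± 2.75 FPKM, whereas PORA, which is lost in the light, had 0.154 ± 0.12 FPKM. The other gene below 1 FPKM, SOM (0.660 ± 0.049 FPKM), is a regulator of seed germination rather than of greening. Of 5 senescence genes downstream of PIF4 and PIF5, 4 were at 1 FPKM or more, against 63% of nuclear protein-coding genes. The chlorophyll b reductase NYC1 had 149 ± 1.20 FPKM and the chlorophyll-degrading protein NYE1 9.998 ± 0.641 FPKM. ORE1 had 9.18 ± 0.485 and ABI5 4.13 ± 0.245 FPKM. The late senescence marker SAG12 was listed at 0 in the 3 libraries.

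**Figure D5:**
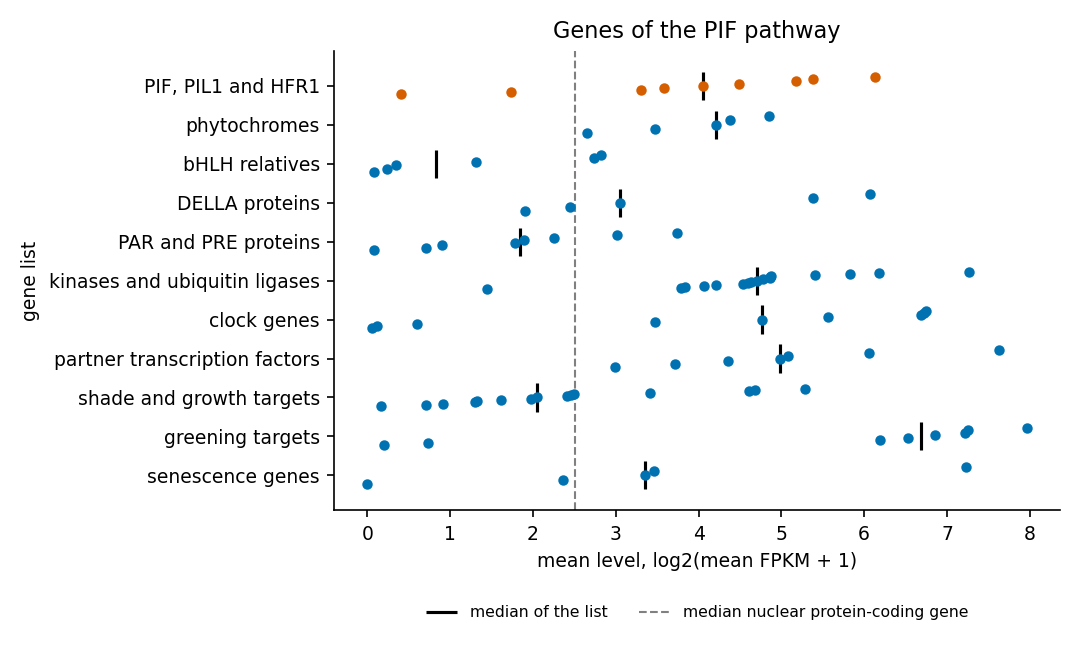
Mean levels (horizontal axis, log2 of mean FPKM + 1) of the 9 members (orange) and of 85 genes in 10 lists of the PIF pathway (blue), 1 point per gene, with the median of each list as a black bar and the median nuclear protein-coding gene as a dashed line. The list of greening targets, which also holds the germination gene SOM, has the highest median (103 FPKM) and bHLH relatives the lowest (0.875 FPKM).

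The labelled tissue, whole plant, was checked against markers of leaf and root. The leaf genes RBCS1A and LHCB1.3 had 10938 ± 89.8 and 13523 ± 137 FPKM. The root-abundant PYK10 had 1196 ± 3.50 FPKM, whereas CASP1, of the root endodermis, had 4.27 ± 0.733 FPKM and the root aquaporin TIP2;3 had 1.59 ± 0.146 FPKM, both below the median nuclear gene. Levels of the PIF genes are sums over shoot and root, in shares that were not measured.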

How the data were processed

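Total RNA of whole seedlings was depleted of ribosomal RNA and sequenced as directional libraries on an Illumina HiSeq instrument, per the labels' protocols. TopHat2 2.0.9 and Cufflinks 2.1.1 stand, without their roles, in the submitters' processing notes, with build TAIR10. The deposited values, computed by the authors, carry no unit and are called FPKM because Cufflinks is named. Their form, whole reads over a whole-number length, is that of a simple count, so RPKM may be the better name. Whether reads or fragments were counted cannot be told.

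All 20669 genes above 0 in the 3 libraries gave whole reads (within 0.0001 reads) for a whole-number length, and library totals were found from genes at annotated lengths. The recovery was tested on simulated data. Totals differed by 0.144%, and 1 read in 1000 bases was worth 0.0502 to 0.0503 FPKM. Differences are on log2(FPKM + 1), which understates those of low genes. No column was left unused.

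Gene models came from TAIR10.1, which held 97.5% of the identifiers; the files give no coordinates. Of 85 list genes, 10 carry literature names. Members and lists were chosen with earlier results of these data known. All members are named, with the 2 highest genes and the lowest gene of each list, all genes of lists of up to 5, and up to 5 further proteins with the phytochrome-binding motif. More than 5 held its core, so those that also have the basic region pattern are named, a choice made after seeing the data. bHLH56, bHLH119 and bHLH127 also stand in a list. LUX, CCA1, LHY and SOM are named beyond these rules, likewise after seeing the data. Alternatives were another pseudocount, detection threshold, scaling, filter or gene length, and leaving out each library. Python 3.11.15, numpy 2.4.6, pandas 2.3.3 and Biopython 1.88 were used.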

Additional observations from a re-analysis of the deposited data

How the results depend on the processing

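The direction of all 7 differences between members and the difference of the median from the background held under every alternative run. For the 7 differences, only another gene length could have reversed a direction. Each already had the same sign in the 3 libraries, and a pseudocount or scaling cannot change which side is higher within a library. With a pseudocount of 0.1 the median of the members lay 1.71 above the background, PIL1 minus HFR1 became -6.59 and PIF7 minus the quartet -3.87, since less is added to low values. With TPM PIL1 minus HFR1 was -5.29. Among genes at a mean of 1 FPKM or more the median difference was 0.51, as fewer low genes remain in the background, and with means in place of medians it was 1.24. Recovered reads over the longest annotated transcript, an alternative chosen after seeing the data, gave 0.83 for PIF4 minus PIF5, 0.73 for PIF1 minus PIF3, -1.44 for PIF7 minus PIF8, -4.77 for PIL1 minus HFR1, 1.81 for PIF4 and PIF5 minus PIF1 and PIF3, -3.86 for PIF7 minus the quartet and -1.18 for HFR1 minus PIF4 and PIF5, because the lengths behind the deposited values are shorter than these by unequal amounts. The order of the 9 genes was the same with those lengths. The reads were not recounted on the longest transcripts. For PIF3, PIF5, PIF7 and HFR1 the length behind the deposited values was below even that of the shortest annotated transcript. At 2 FPKM in every library 7 members passed, but the share of nuclear protein-coding genes at that threshold was not taken. With 1 library left out at a time, PIF1 minus PIF3 ran from 0.45 to 0.50, PIF7 minus PIF8 from -1.27 to -1.11 and the median difference from 1.52 to 1.58. Depth limits PIL1 and PIF6.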

Other observations

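The windows from 250 bases before to 50 bases after the annotated start of each gene were searched on both strands for 4 short motifs. The G-box (CACGTG), to which PIFs bind, stood in the window of PIF5 and in 7.79% of 26709 windows of nuclear protein-coding genes. The PBE-box (CACATG), a second PIF site, stood in that of PIF7 and in 13.0% of all windows. The letters GATACG or GATTCG, which the evening complex protein LUX binds, stood in the windows of PIF6 and PIF8 and in 14.5% of all windows. The evening element (AAAATATCT) was in none of the 9 windows and in 2.86% of all. These are matches of letters in a short window.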
